A study of Mus musculus with 32 samples.

Results

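Ache, Bche, Colq and Prima1 encode the cholinesterases of mouse muscle and the proteins that anchor them. They were taken by name as these 4 of the 24952 genes in the deposited tables, with no filter on their values, though earlier results of these data were known. RNA had been sequenced from laser-captured pieces of the tibialis anterior (TA), a muscle of the lower leg, in 32 libraries. Synaptic regions (NMJ) were recognized by fluorescent α-bungarotoxin, a toxin that binds acetylcholine receptors, and extra-synaptic regions (xNMJ) were cut elsewhere in the sections. Both regions were taken at 10 months (10m) and at 30 months (30m) of age, which gives 4 groups of 8 libraries. All were wild type C57BL/6JRj males, housed singly on AIN93M diet, so no group carried a mutation or received a drug, and age went together with the longer time on this diet. Each library pooled many captured regions, which hold the fiber with the Schwann cells, fibroblasts and capillaries around it. The labels do not tie libraries to animals, and p values measure only the spread between libraries, part of which may be technical.

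At the neuromuscular junction, acetylcholine released by the motor nerve opens receptors on the fiber and is then broken down in the synaptic cleft. Acetylcholinesterase, encoded by Ache, does this work, while butyrylcholinesterase, encoded by Bche, hydrolyzes the same transmitter and other esters and is also made by glia and liver. Neither enzyme is held in place by itself. Colq encodes a collagen tail that fixes cholinesterase to the synaptic basal lamina through perlecan and the receptor kinase MuSK, and loss of it causes a congenital myasthenia in people. Prima1 encodes a small proline-rich membrane anchor that holds cholinesterase on cell surfaces, best known from neurons.

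The positions are those of GENCODE M21 on GRCm38. Ache (ENSMUSG00000023328) lies on chromosome 5 from 137287519 to 137294466 on the plus strand, and its first-numbered transcript has 5 exons. Bche (ENSMUSG00000027792) lies on chromosome 3 from 73635808 to 73708415, Colq (ENSMUSG00000057606) on chromosome 14 from 31523082 to 31591343 and Prima1 (ENSMUSG00000041669) on chromosome 12 from 103196908 to 103242150, all 3 on the minus strand. The first-numbered transcripts of these 3 genes have 4, 17 and 5 exons. Prima1 has the shortest transcript with 909 bases and Bche the longest with 6210. Levels of different genes are therefore compared in TPM, a share of all transcripts that is scaled for length and for the library total. Counts listed side by side are not scaled for length. No stretch of 31 bases was shared between any 2 of the 4 genes. Only Colq shared such stretches with other protein-coding genes, 5 of its 3017 (0.166%). Only protein-coding transcripts with better annotation support were searched, so sharing with other transcripts was not examined.

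The anchors carry runs of prolines through which they grip the tails of cholinesterase subunits. The 15 codons richest in proline are shown for both anchors because this element is what they have in common. Proline codons are in capitals, read 5′ to 3′ along the coding strand from GRCm38. The Colq run lies in exon 2, at codons 51 to 65 and chr14:31553764-31553808 (minus strand), and the Prima1 run in exon 3, at codons 56 to 70 and chr12:103235605-103235649 (minus strand).
Colq: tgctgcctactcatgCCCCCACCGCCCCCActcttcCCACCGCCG
Prima1: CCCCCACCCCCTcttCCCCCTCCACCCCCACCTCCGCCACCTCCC
In the Colq stretch 8 of 15 codons are for proline and in the Prima1 stretch 14 of 15, whereas over all codons the share is 15.4% of 456 in Colq and 14.5% of 152 in Prima1.

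RefSeq promoter sequences on GRCm38.p6 matched 3 of the 4 genes (Ache, Bche and Prima1), and are shown because these genes were measured together at the synapse. Each is the part of the 250 bases before the start that no annotated exon covers. Capitals mark the E-box CANNTG and the GC box GGGCGG, searched on both strands, where neighboring GC boxes may share bases. The regions are chr5:137288058-137288253 (plus strand) for Ache, chr3:73708416-73708665 (minus strand) for Bche and chr12:103242151-103242396 (minus strand) for Prima1.
Ache: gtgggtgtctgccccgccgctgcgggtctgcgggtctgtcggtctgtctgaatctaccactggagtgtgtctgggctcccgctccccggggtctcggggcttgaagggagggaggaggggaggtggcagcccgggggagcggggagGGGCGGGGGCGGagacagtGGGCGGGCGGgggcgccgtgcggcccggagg
Bche: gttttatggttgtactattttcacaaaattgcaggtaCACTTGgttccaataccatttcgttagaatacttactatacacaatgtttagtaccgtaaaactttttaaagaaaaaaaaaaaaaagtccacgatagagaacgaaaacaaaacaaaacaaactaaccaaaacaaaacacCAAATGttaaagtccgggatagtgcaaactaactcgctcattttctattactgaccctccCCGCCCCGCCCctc
Prima1: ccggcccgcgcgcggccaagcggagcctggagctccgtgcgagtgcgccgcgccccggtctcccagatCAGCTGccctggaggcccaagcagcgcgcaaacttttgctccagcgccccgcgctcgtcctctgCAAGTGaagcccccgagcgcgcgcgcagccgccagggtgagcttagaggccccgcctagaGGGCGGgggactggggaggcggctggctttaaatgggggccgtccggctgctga
The Ache window had a GC content of 73.6% with 4 GC boxes within 50 bases of the start, and the Prima1 window 73.2% with 1. The Bche window was AT-rich at 35.6% GC, against a median of 52.4% over 32851 windows of 250 bases, and held 2 GC boxes within 14 bases of the start. Ache held 1 E-box, 199 bases before the start and outside the printed stretch, and Bche and Prima1 held 2 each. An E-box was found in 66.2% of all windows and a GC box in 32.7%. The N-box CCGGAA, known from synaptic genes, was in none of the 3 windows and in 12.0% of all windows. A match is a description of letters and not of binding.

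At 10 months the median library total was 6062117 counts in xNMJ and 9605869 in NMJ, and at 30 months 6790011 and 9825357. Totals ranged from 4026648 to 16516788. A floor of 3 counts was therefore worth 0.182 to 0.745 CPM, the count scaled to the library total alone, and covers counting error only. Genes with at least 1 CPM in at least 8 libraries were tested with edgeR's quasi-likelihood test in one fit of the 4 groups, with Benjamini-Hochberg adjustment over all 13990 genes and a threshold of 0.05. All 4 genes passed this filter, Colq and Prima1 only through their NMJ libraries.

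The captured regions carried their labels' markers. Summed over Chrna1, Chrnb1, Chrnd, Chrne and Chrng, the subunits of the muscle acetylcholine receptor, the level was 375.9 TPM or more in every NMJ library, and its median was 12.0 TPM in 10m xNMJ and 17.72 TPM in 30m xNMJ. One extra-synaptic library stood apart. 30m xNMJ replicate 5 had 122.6 TPM of these subunits, the highest of its group, and lay at 21.66 on the first principal component, while no other xNMJ library exceeded -38.5 and no NMJ library fell under 30.87. A second one, 10m xNMJ replicate 7, was unusual for both anchors but not for the enzymes. Results that rest on these libraries are therefore given with and without them.

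Ache was abundant in all NMJ regions and scarce outside them. It had 0.344, 0.701 and 5.74 TPM in the lowest, the median and the highest library of 10m xNMJ, and 55.2, 97.1 and 157.4 TPM in 10m NMJ. At 30 months the lowest, median and highest values were 0.179, 1.02 and 11.2 TPM in xNMJ and 61.8, 79.1 and 110.1 TPM in NMJ. Groups of the 2 regions did not overlap at either age, whereas the 2 NMJ groups overlapped, with the highest libraries at 10 months. Means were 99.4 ± 29.2 TPM (SD, n = 8) in 10m NMJ and 81.3 ± 16.8 TPM in 30m NMJ. In edgeR, Ache was 49.3-fold higher in NMJ than in xNMJ at 10 months (log2 fold change 5.62 ± 0.63 SE, adjusted p = 1.01e-07) and 18.4-fold higher at 30 months (4.20 ± 0.58, adjusted p = 5.8e-06). Among all tested genes, 6.5% were called higher in NMJ at 10 months and 5% at 30 months, and 2.22% and 1.96% had every NMJ library above every xNMJ library in CPM scaled by edgeR's TMM factors. In such bulk samples, fewer cells of a type and less RNA per cell cannot be told apart.

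The low level of Ache outside the synapse came from few reads. The 8 libraries of 10m xNMJ held 123 Ache counts in all, of which 51 were in replicate 6, and those of 30m xNMJ held 410, of which 323 (78.8%) were in replicate 5. DESeq2, which replaced the 323 counts by 665, gave a difference of 3.55 at 30 months on the log2 scale (adjusted p = 3.3e-06). Without 30m xNMJ replicate 5 it was 5.39 in edgeR (adjusted p = 5.2e-09), and without 10m xNMJ replicate 6 that at 10 months was 6.31 (adjusted p = 2.5e-08). A noncoding gene on the opposite strand, Gm42456, overlaps the start of Ache and is counted in the same table. The strand of the reads was not used, so reads of the shared part cannot be told apart. Colq is likewise overlapped on its own strand by Gm49387, a protein-coding gene that is not in the table.

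Bche rose at the synapse too, to a lower level than Ache in median TPM at both ages. Its lowest, median and highest values were 0, 0.449 and 2.48 TPM in 10m xNMJ and 3.93, 12.8 and 19.6 TPM in 10m NMJ. In 30m xNMJ they were 0.0303, 1.02 and 3.55 TPM, and in 30m NMJ 5.8, 8.01 and 13.3 TPM. The regions did not overlap in TPM at either age, nor in CPM by the library total alone, but with TMM factors 1 of 8 NMJ libraries at 30 months was not above every xNMJ library. Among all tested genes, 2.22% at 10 months and 1.96% at 30 months had no overlap with TMM factors. Bche was 10.5-fold higher in NMJ at 10 months (log2 fold change 3.39 ± 0.68 SE, edgeR adjusted p = 0.00075) and 4.16-fold higher at 30 months (2.06 ± 0.65, adjusted p = 0.038). Of the 247 Bche counts in 10m xNMJ, 145 came from replicate 4, without which the difference was 4.15 on the log2 scale (adjusted p = 9.5e-05).

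The call for Bche at 30 months was close to the threshold. It was lost in 8 of 32 fits that each left out 1 library, namely 30m xNMJ replicate 1, 2, 3, 4 or 8 or 30m NMJ replicate 3, 6 or 7, with differences from 1.87 to 2.00 and adjusted p from 0.0593 to 0.0702. Over all 32 such fits its adjusted p ranged from 0.0167 to 0.0702. In NMJ regions Ache made up 82.43% to 96.22% of the TPM of both cholinesterases at 10 months (median 89.13%) and 85.81% to 93.35% at 30 months (median 90.73%). The same share ran from 8.645% to 93.86% in 30m xNMJ and from 18.34% to 100% in 10m xNMJ, where few reads of either gene stood behind it.

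Colq, the collagen tail, had the largest fold change between regions of the 4 genes at both ages in edgeR with all libraries. At 10 months Ache had the larger one in DESeq2, and in edgeR without 10m xNMJ replicate 6. At 30 months Prima1 had the larger one in DESeq2, and in edgeR without 30m xNMJ replicate 6. At both ages DESeq2 had replaced the highest xNMJ count of Colq by a larger one, which lowers the fold change of Colq. The lowest, median and highest values of Colq were 0.0157, 0.296 and 5.21 TPM in 10m xNMJ, and 80.0, 96.8 and 143.8 TPM in 10m NMJ. In 30m xNMJ they were 0.0209, 0.196 and 5.36 TPM, and in 30m NMJ 79.3, 86.8 and 124.1 TPM. Every NMJ library lay far above every xNMJ library, and the NMJ means were 100.6 ± 20.0 TPM (SD, n = 8) at 10 months and 92.8 ± 14.1 TPM at 30 months. In CPM scaled by TMM factors, 2.22% of all tested genes at 10 months and 1.96% at 30 months were likewise without overlap. No such share was taken in TPM. Colq was 73.4-fold higher in NMJ at 10 months (log2 fold change 6.20 ± 0.82 SE, edgeR adjusted p = 1.7e-06) and 50.6-fold higher at 30 months (5.66 ± 0.79, adjusted p = 6.6e-06). The order of the 4 genes in fold change is a description, and differences between genes were not tested.

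Most xNMJ libraries held hardly any Colq. It was at or under 3 counts in 4 of 8 libraries at 10 months and 5 of 8 at 30 months. A single library gave 127 of the 150 counts in 10m xNMJ (84.7%, replicate 7) and 198 of the 229 counts in 30m xNMJ (86.5%, replicate 5). Without them the differences were 8.16 (adjusted p = 1.4e-08) and 7.49 (adjusted p = 1.9e-08) on the log2 scale, so that the size of the change, but not its call, depended on 1 library at each age. In DESeq2, which replaced these outlying counts by 753 and 959, the differences were 4.17 (adjusted p = 0.0032) and 3.89 (adjusted p = 0.0083). Without this replacement the DESeq2 differences of Colq lay closer to those in edgeR with all libraries.

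Prima1 was the least abundant of the 4 genes in NMJ regions by median TPM and the least regular. Its lowest, median and highest values were 4.09, 6.39 and 11.01 TPM in 10m NMJ, where all libraries held it. In 30m NMJ they were 0, 3.24 and 35.0 TPM, so that 1 library had none and another more than any library at 10 months. Outside the synapse it was listed at 0 TPM in most libraries, with a median of 0 and a highest value of 9.15 TPM at 10 months and 1.82 TPM at 30 months. The regions overlapped at both ages. At 10 months the log2 fold change was 1.81 ± 1.08 SE and did not pass (edgeR adjusted p = 0.34), while at 30 months it was 4.22 ± 1.27 (adjusted p = 0.029). Prima1 had passed the filter only through NMJ libraries, the region where it was high. In the libraries of 30 months alone it missed the filter, so this call relied on the fit of all 4 groups.

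For Prima1 this difference in calls rested on single libraries. Replicate 7 gave 69 of the 72 counts in 10m xNMJ, and without it Prima1 was higher in NMJ at 10 months by 5.26 ± 1.22 on the log2 scale (adjusted p = 0.0032). At 30 months, replicate 7 of NMJ gave 270 of 464 counts (58.2%), and without it the difference was 3.04 with an adjusted p of 0.13. The call at 30 months was also lost without 30m xNMJ replicate 1, 2, 4 or 8, with adjusted p between 0.0511 and 0.0544, and without 30m xNMJ replicate 6, which held 5 of its group's 8 counts, it was 5.57 (adjusted p = 0.0099). With both 10m xNMJ replicate 7 and 30m xNMJ replicate 5 left out, chosen after the data were seen, the differences were 5.26 and 3.96, with adjusted p of 0.0025 and 0.013. In 10m xNMJ replicate 3, Prima1 had 3.75 TPM from 3 counts. A CPM of Prima1 was worth 7.17 TPM there, against 1.29 to 1.63 TPM in NMJ libraries, so that this TPM stood above what its count would give. Prima1 made up 3.93% to 10.1% of the TPM of both anchors in 10m NMJ (median 6.26%) and 0% to 29.0% in 30m NMJ (median 3.24%), and Colq the rest.

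**Figure D1:**
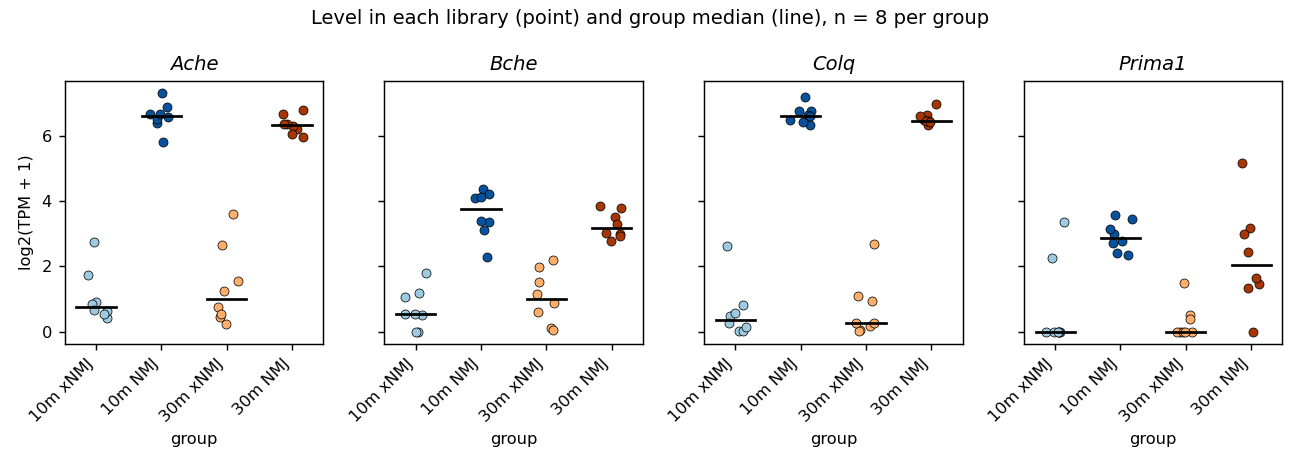
Level of each gene in each library, as log2(TPM + 1), by group (points are libraries, lines are medians, n = 8 per group). Ache, Bche and Colq had every NMJ library above every xNMJ library of the same age, with Ache and Colq near 6 to 7 in NMJ regions, whereas the groups of Prima1 overlapped. Of all tested genes, 2.22% at 10 months and 1.96% at 30 months had no overlap in CPM with TMM factors, and no share was taken in TPM.

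**Figure D2:**
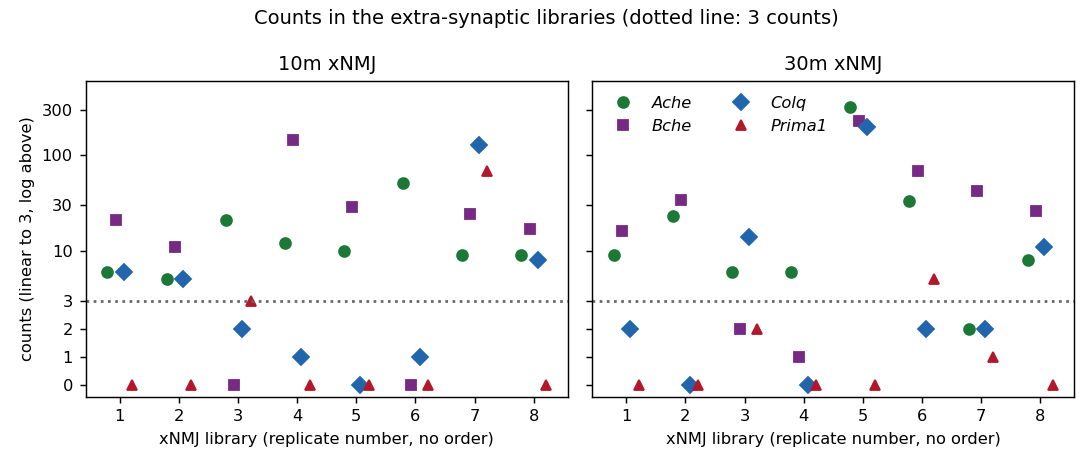
Deposited read counts of the 4 genes in each of the 8 xNMJ libraries at 10 months (left) and 30 months (right), on an axis linear up to 3 counts (dotted line) and logarithmic above. 10m xNMJ replicate 7 stands out for Colq (127) and Prima1 (69) with only 9 counts of Ache, and 30m xNMJ replicate 5 for Ache (323), Bche (231) and Colq (198) with no count of Prima1.

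The unusual xNMJ libraries differed in kind. 30m xNMJ replicate 5 held 323 counts of Ache, 231 of Bche and 198 of Colq, and with them the receptor subunits. It was also the deepest of its group with 13182475 counts and had an average insert of 130 bases. 10m xNMJ replicate 7 held 127 counts of Colq and 69 of Prima1 with 9 of Ache and 24 of Bche. In TPM these were 5.21, 9.15, 0.457 and 0.451, so the anchors stood high there without the enzymes. Its total of 10258988 counts was the highest of its group, and its receptor subunits did not pass the group's highest sum of 16.0 TPM. Which cells or regions gave these reads was not tested.

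**Figure D3:**
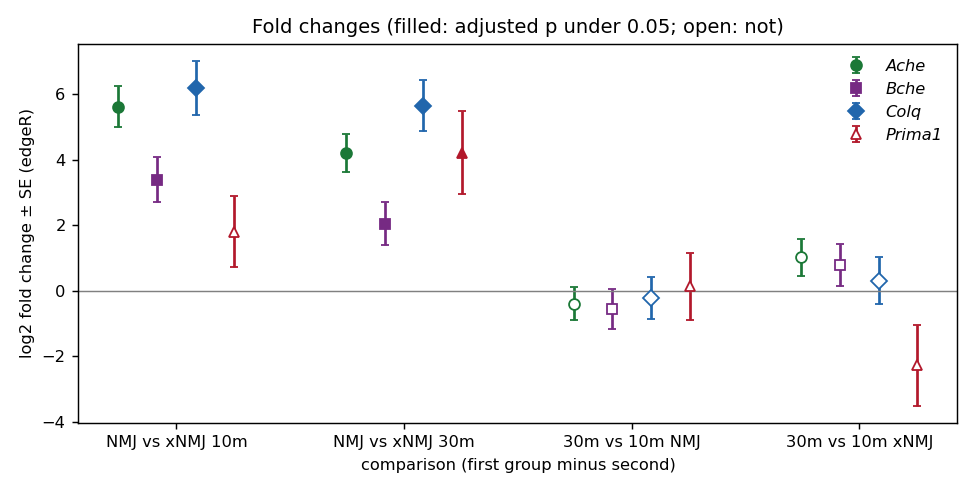
Fold changes of the 4 genes in edgeR with their SE (vertical axis, log2 scale) in 4 comparisons, filled where the adjusted p was under 0.05. Ache, Bche and Colq were higher in NMJ regions at both ages and Prima1 at 30 months, and no gene passed between ages. In the libraries of 30 months alone Prima1 missed the filter.

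Aging moved none of the 4 genes past the threshold in either region. In NMJ regions, 30 minus 10 months was -0.40 for Ache (95% interval -1.42 to 0.63), -0.56 for Bche (-1.81 to 0.69), -0.22 for Colq (-1.52 to 1.07) and 0.13 for Prima1 (-1.97 to 2.24) on the log2 scale, each with an edgeR adjusted p of 0.9998. The interval was narrowest for Ache and widest for Prima1. In this comparison 0% of tested genes were called, 372 had an unadjusted p under 0.05, and DESeq2 called 0. For Prima1 the direction reversed without 30m NMJ replicate 7, to -1.03. Medians of 97.1 and 79.1 TPM for Ache and of 12.8 and 8.01 TPM for Bche were lower at 30 months, and the libraries of both ages overlapped for both.

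In xNMJ regions the differences between ages were 1.02 ± 0.57 (SE) for Ache, 0.78 ± 0.64 for Bche, 0.31 ± 0.72 for Colq and -2.28 ± 1.23 for Prima1, with edgeR adjusted p of 0.60, 0.80, 0.96 and 0.59. In this comparison 0.0429% of genes were called, 6 by edgeR against 84 by DESeq2. The directions of Ache, Colq and Prima1 turned without single libraries, while that of Bche did not. Without 30m xNMJ replicate 5, Ache was at -0.16 and Colq at -1.52, and without 10m xNMJ replicate 7, Prima1 was at 1.18 and Colq at 2.28. Without 10m xNMJ replicate 4, Bche was at 1.54, and without 10m xNMJ replicate 6, Ache was at 1.72.

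Whether the contrast between regions differed between ages was tested as an interaction. It was -1.42 ± 0.76 (SE) for Ache, -1.34 ± 0.89 for Bche, -0.54 ± 0.96 for Colq and 2.41 ± 1.59 for Prima1, each with an edgeR adjusted p of 0.9999. The smaller fold changes of Ache and Bche at 30 months and the call of Prima1 at 30 months alone are therefore not shown to differ between ages. In this comparison 0% of genes were called by edgeR, 708 had an unadjusted p under 0.05, and DESeq2 called 10. Without 30m xNMJ replicate 5, the interaction was -0.24 for Ache and 1.30 for Colq, and without 10m xNMJ replicate 7 it was -2.50 for Colq and -1.04 for Prima1. For Ache it was -2.11 without 10m xNMJ replicate 6 and -2.09 in DESeq2 with all libraries. For Bche it was -2.10 without 10m xNMJ replicate 4. None of these values passed the threshold.

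Transcripts of the enzyme and of its collagen tail were present at similar levels in NMJ regions. The ratio of Ache TPM to Colq TPM ran from 0.574 to 1.77 over the 8 libraries of 10m NMJ, with a median of 0.93 and a mean of 1.02 ± 0.38 (SD, n = 8). Over the 8 libraries of 30m NMJ it ran from 0.619 to 1.19, with a median of 0.852 and a mean of 0.889 ± 0.203. Ache exceeded Colq in 3 of 8 libraries at 10 months and in 2 of 8 at 30 months, so that neither gene led throughout. The ratio spanned a smaller range at 30 months, but the spread was not tested.

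Outside the synapse, only 4 libraries at 10 months and 3 at 30 months had at least 3 counts of both genes. Their ratios were 1.16, 0.885, 1.26 and 0.0878 at 10 months, the last in replicate 7 with its 127 counts of Colq, and 0.403, 2.08 and 1.68 at 30 months. The highest ratio at 30 months, 2.08, was that of replicate 5, with 323 and 198 counts. In 30m xNMJ replicate 8, with 1.68, Ache had 8 counts and Colq 11, so the ratio of counts was 0.727, and a CPM of Ache was worth 1.06 TPM there against 0.47 to 0.613 TPM in NMJ libraries. All but those of 10m xNMJ replicate 7 and 30m xNMJ replicate 5 stand on 14 or fewer counts of each gene.

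**Figure D4:**
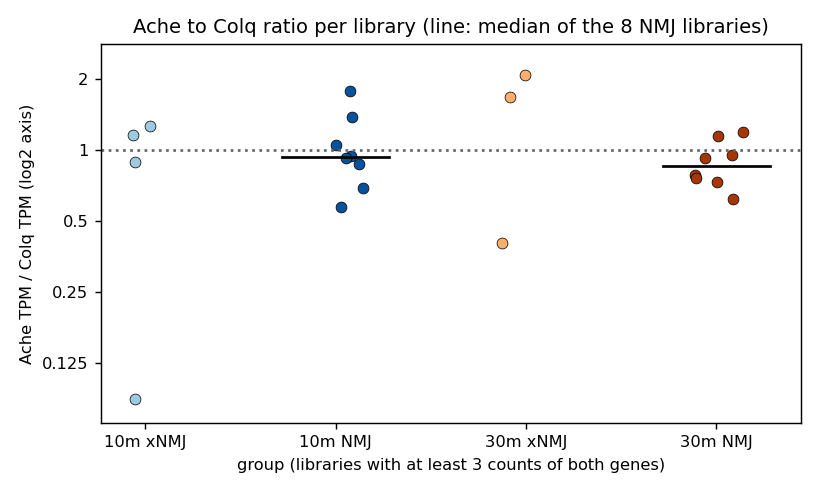
Ratio of Ache TPM to Colq TPM (log2 axis) in each library with at least 3 counts of both genes, by group, with the median of the 8 libraries of each NMJ group as a line and equality as a dotted line. The NMJ libraries sit between 0.574 and 1.77 on both sides of equality, and the few xNMJ libraries range from 0.0878 to 2.08.

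The ratio was compared as log2((Ache TPM + 1)/(Colq TPM + 1)) with exact two-sided permutation tests over the libraries, adjusted over 4 comparisons. It did not differ beyond the spread between the NMJ groups (-0.15 at 30 minus 10 months, interval -0.61 to 0.30, exact p = 0.49, adjusted p = 0.65) or between the xNMJ groups (0.25, interval -0.94 to 1.46, exact adjusted p = 0.69), where the direction reversed without 10m xNMJ replicate 7 (-0.12). With other settings the difference between the xNMJ groups ran from 0.17 to 0.95 and did not pass. NMJ minus xNMJ was -0.50 at 10 months (interval -1.55 to 0.59, exact adjusted p = 0.65), and -0.86 without 10m xNMJ replicate 7 (exact adjusted p = 0.073). Over all fits without 1 library it ran from -0.86 to -0.19. With other settings it ran from -1.34 to 0.74, the latter without a pseudocount in libraries with at least 3 counts of both genes. At 30 months it was -0.90 (interval -1.59 to -0.24, exact p = 0.0096, adjusted p = 0.039), with a mean of -0.20 ± 0.32 (SD, n = 8) in NMJ and 0.70 ± 0.87 in xNMJ. That call was lost without any 1 of 12 libraries (30m xNMJ replicate 1, 2, 4, 5, 6 or 8 and 30m NMJ replicate 1, 2, 3, 4, 5 or 7), with exact adjusted p from 0.0522 to 0.0771 and -0.86 without 30m xNMJ replicate 5. It was also lost with a pseudocount of 0.1 TPM (-1.74, exact adjusted p = 0.053) and when only libraries with at least 3 counts of both genes were used without a pseudocount (-0.37, exact adjusted p = 0.57).

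No relation between Ache and Colq within the NMJ groups passed the test. Across the 8 libraries of 10m NMJ, log2(TPM + 1) of the 2 genes gave a Pearson r of -0.06 (exact permutation p = 0.88) and a Spearman rho of -0.24 (exact permutation p = 0.58). Across those of 30m NMJ, r was 0.14 (exact permutation p = 0.76) and rho 0.24 (exact permutation p = 0.58). With both ages pooled after removing their means, r was 0.01 over 16 libraries (permutation p = 0.98) and rho -0.03 (permutation p = 0.91), and the adjusted p over these 3 relations was 0.98 for each r. The r at 10 months leaned on few libraries, since it was -0.86 without the 2 libraries farthest from the median of Ache, against 0.37 at 30 months and -0.18 in the pooled set. Without 10m NMJ replicate 8 alone, the r at 10 months was -0.05. Over all 32 libraries the log2 CPM of Ache and Colq correlated with 0.90, but with 0.15 once group means were removed and -0.19 when the 2 xNMJ libraries that stood apart were also left out, and the 32 points fall into clusters by region.

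The genes that followed each member most closely were also found by correlation of log2 CPM over the 32 libraries, as a description. These points fall into NMJ and xNMJ clusters. For Ache they were Calcrl, a receptor subunit for calcitonin gene-related peptide (r = 0.96), the transporter Slc45a3 (0.96) and the glial calcium-binding protein S100b (0.96). For Colq they were Crym, a thyroid hormone-binding protein (0.97), Prr29 (0.97) and Chrne, the adult receptor subunit (0.96). Bche was followed by Ctdspl (0.84), the stress-response factor Xbp1 (0.84) and the chemokine Cxcl14 (0.82), at lower values. Prima1 was followed by the heparan sulfate sulfotransferase Hs3st3a1 (0.79), Apoe (0.79) and the chaperone Hspa5 (0.78). After group means were removed, with only genes averaging 10 CPM or more in NMJ libraries ranked, the leading genes were Slc45a3 for Ache (0.67), Prr29 for Colq (0.78), Txnl4a for Bche (0.76) and Apoe for Prima1 (0.57). Slc45a3, Calcrl, Prr29, Crym and Apoe were among the leading 3 for the same member by both measures with all libraries. Those of Colq leaned on 10m xNMJ replicate 7 and 30m xNMJ replicate 5. Without these 2 libraries, and with group means removed, Prr29 fell from 0.78 to 0.37 and Crym from 0.74 to 0.06, and for Ache Slc45a3 fell from 0.67 to 0.56 and Calcrl from 0.65 to 0.35. Txnl4a was at 0.73 for Bche and Apoe at 0.55 for Prima1. Over the remaining 30 libraries with both regions pooled, the genes named for Colq stayed at 0.97.

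Of the receptor subunits that acetylcholine opens, 4 of 5 were higher in NMJ at both ages, where 6.5% and 5% of all genes were called higher. The fetal subunit Chrng was not called (log2 fold changes 2.33 and 2.66, edgeR adjusted p = 0.15 and 0.10). At 10 months Chrna1 was higher by 4.47, Chrnd by 8.64, Chrne by 9.72 and Chrnb1 by 2.52 on the log2 scale. The list's median was 4.47 at 10 months and 3.94 at 30 months, against 0.0036 and -0.0143 over all tested genes. With 10m xNMJ replicate 7 and 30m xNMJ replicate 5 left out the same counts held, and Chrne at 30 months moved from 4.51 to 12.6, while Chrng was at 2.42 and 2.44.

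Of the 7 binding partners of the collagen tail and organizers of the synapse, 6 were tested, of which 2 were higher and 1 lower at both ages, where 6.5% and 5% of all genes were called higher and 5.05% and 4.25% lower. Musk, the kinase to which the collagen tail binds, was higher by 3.45 at 10 months and 3.18 at 30 months (edgeR adjusted p = 2.1e-05 and 7.3e-05). Dag1, which encodes dystroglycan, was higher by 0.51 and 0.72 (adjusted p = 0.022 and 0.0015). Lrp4, the agrin receptor, was lower (-2.002 and -1.91, adjusted p = 0.0029 and 0.0050). Agrn was not called (1.28 and 1.43, adjusted p = 0.37 and 0.35), and neither were Dok7 and Rapsn. Hspg2, the gene of perlecan, did not pass the filter and had at most 0.0966 TPM in any library at 10 months and 3.16 TPM at 30 months. The list's median was 0.58 at 10 months and 0.40 at 30 months.

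For acetylcholine and choline handling, most of the genes tested supply choline for phospholipids. Of 8 listed genes 7 were in the tables and 6 were tested, with 0 called at 10 months and 1 at 30 months, the choline transporter Slc44a1 (1.85 ± 0.59 SE, edgeR adjusted p = 0.039), where 6.5% and 5% of all genes were called higher, so that these counts say nothing particular of the list. The list's median was 0.12 at 10 months and 0.33 at 30 months. Chat, which makes acetylcholine in the motor nerve, had at most 1.03 TPM in any library, and the choline transporter Slc5a7 at most 0.111 TPM. Levels of Snap25, Nefl, Tubb3 and Syt1, further genes of nerve cells, summed to medians of 0.35 TPM in xNMJ and 0.23 TPM in NMJ at 10 months, and of 0.184 and 1.29 TPM at 30 months. Single libraries were higher, up to 14.3 TPM in 10m NMJ, and of these genes only Tubb3 was tested and it was not called.

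The next list holds genes whose proteins fold secreted enzymes and build collagen tails. Of 11 such genes 6 were higher in NMJ at 10 months and 5 at 30 months, where 6.5% and 5% of all genes were, with medians of 1.05 and 1.17. At 10 months the chaperone Hspa5 was higher by 1.52 (edgeR adjusted p = 1.2e-07), P4hb, the shared subunit of prolyl hydroxylase, by 1.22 (adjusted p = 0.00083), its catalytic subunit P4ha1 by 1.94 (adjusted p = 0.0068) and the lysyl hydroxylase Plod1 by 1.05 (adjusted p = 0.019). At 30 months Plod1 was not called (0.53, adjusted p = 0.34). Serpinh1, a chaperone of collagens, was not called (1.10 and 1.17, adjusted p = 0.12 and 0.10). Without the 2 xNMJ libraries the counts were 5 of 11 at both ages. Of the genes whose proteins share the cholinesterase fold, 3 of 4 were tested, with Nlgn1, a neuroligin, lower (-1.88 and -1.67, adjusted p = 0.00090 and 0.0035), and Nlgn3 and Ces1d not called, where 5.05% and 4.25% of all genes were called lower. That list's median was -0.94 at 10 months and -0.76 at 30 months.

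Markers of other cells moved with the region as well, where 6.5% and 5% of all genes were called higher at 10 and 30 months. All 6 of the tested Schwann cell markers were higher in NMJ at both ages, and their summed level rose from a median of 7.49 to 209.4 TPM at 10 months and from 9.49 to 176.1 TPM at 30 months. Their most abundant gene was Pmp22, while the glial factor Sox10 reached at most 0.788 TPM in xNMJ libraries and at least 3.85 TPM in NMJ libraries. Gfap had at most 0.237 TPM in any library and no count in 10m xNMJ. The count for Schwann cells was the same without the 2 xNMJ libraries named above. Of 4 fibroblast markers 3 were higher at both ages, with summed medians of 59.2 and 750.5 TPM at 10 months and 86.5 and 726.8 TPM at 30 months, led by Dcn, and Col1a1 was not called. Of 4 macrophage markers 2 were higher at 10 months (Cd68 and C1qa) and 1 at 30 months (Adgre1, with no count in 30m xNMJ), with summed medians of 3.13 and 31.7 TPM at 10 months and 3.85 and 24.4 TPM at 30 months. These markers and the cholinesterase genes moved in the same direction, and the part of Schwann cells, fibroblasts and macrophages in the levels of Ache, Bche, Colq and Prima1 was not tested.

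No gene of the other lists was called higher at 10 or 30 months, where 6.5% and 5% of all genes were. Genes called lower were few in each list apart from the muscle fiber markers, where 5.05% and 4.25% of all genes were called lower. Few genes were tested in most of these lists, so their single lower calls are not set apart from these shares. Of 4 endothelial markers none was higher at either age and Cdh5 was lower at 30 months (-1.29, edgeR adjusted p = 0.0094). Of 4 pericyte and smooth muscle markers, Rgs5 was lower at 30 months (-0.83, adjusted p = 0.034) and the others were not called. None of the 5 red blood cell markers was called at either age. Plin1, the only adipocyte marker tested, was lower (-1.62 at 10 months and -1.63 at 30 months), and Pax7, the only muscle stem cell marker tested, was not called (0.47 and 0.01). Muscle fiber markers were abundant throughout, from 65850 to 130400 TPM in sum, with medians of 86080 TPM in xNMJ and 85870 TPM in NMJ at 10 months and of 97040 and 86380 TPM at 30 months. In edgeR, on counts scaled by TMM factors, 3 of 5 were lower in NMJ at 10 months and 4 of 5 at 30 months, such as Ckm (-1.08 at both ages), where 5.05% and 4.25% of all genes were called lower. In TPM, the medians of Mylpf and Pvalb were higher in NMJ at 10 months. Between ages, none of these 15 lists had a gene called by edgeR in either region, where 0% of all genes were called in NMJ and 0.0429% in xNMJ.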

How the data were processed

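RNA of laser-captured pieces of TA muscle, with or without synapses, was sequenced, and libraries were grouped by age and region from the sample labels. The authors prepared them with SMART-Seq v4, trimmed reads with Cutadapt 1.9.1 and assigned them with kallisto 0.43.1 to transcripts of GRCm38, described as protein-coding although the table also names some noncoding genes, a read on several transcripts being shared among them, and transcripts were summed per gene. The deposited read counts are whole numbers without normalization. As 18692 entries with a count of 0 have a TPM above 0, they had been rounded. The deposited TPM were scaled by the authors for length and library total.

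Differences in counts were tested with edgeR 4.0.16, run in R 4.3.3 (TMM factors, at least 1 CPM in at least 8 libraries, quasi-likelihood test, two-sided, adjusted over 13990 genes). SE were derived from the F statistic. Ratios used scipy 1.17.1, with a pseudocount of 1 TPM, and their intervals hold the shifts that the exact test did not reject. Correlations of all 16 NMJ libraries used 100000 resamples. TPM were neither rescaled nor filtered. Figures were drawn with matplotlib 3.10.9.

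The genes, 15 lists of pathway and marker genes and tests were chosen with earlier results of these data known. Named genes were the 4 genes, up to 4 per list with the smallest p and others where a count of few required them, and the 3 genes most correlated with each of the 4. Slc18a3 was not analyzed here. Alternatives were DESeq2 1.42.0, its size factors, no filter, the compared groups only, the replicate block, insert size as a covariate, other pseudocounts, CPM for TPM, and leaving out each library (for the correlation only 10m NMJ replicate 8). That library had the shortest average insert, 52 bases. Leaving out 10m xNMJ replicate 7 with 30m xNMJ replicate 5, DESeq2 without outlier replacement, CPM by the library total alone, correlations without those 2 libraries, and most of the ratios without 1 library, were chosen after the data were seen.

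Replicates were compared in 112 same-group pairs, with a chi-squared of 24.5 to 405 per gene, so that no pair agreed within sampling noise. The fits were tested on simulated data. Since no molecular identifiers were used, floors cover counting error only.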

Additional observations from a re-analysis of the deposited data

Results flagged for a closer look

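Of 20 sets of 8 values examined (each gene and the Ache to Colq ratio in each group), 3 had a library whose gap to the nearest other exceeded Dixon's critical share of the group's range. For normally distributed values chance gives about 1 in 20. The 3 flagged sets hold many very low counts, so this rate need not apply to them. In 10m xNMJ, Colq in replicate 7 was at 2.63 on the log2(TPM + 1) scale, with the next library at 0.82. In 30m xNMJ, Colq in replicate 5 was at 2.67, with the next at 1.10. In 30m xNMJ, Prima1 in replicate 6 was at 1.49, with the next at 0.50, a value that stands on 5 counts. No difference between ages in the contrast of regions passed the test of the interaction for any of the 4 genes.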

How the results depend on the processing

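Ache and Colq were higher in NMJ regions and past the threshold in all 160 alternative values, and Bche at 10 months in all 40. Bche at 30 months kept its call in 31 of 40, being lost with insert size as a covariate (1.91, adjusted p = 0.054) and in fits without 1 library, which ranged from 1.87 to 2.42. Inserts were mostly longer in NMJ than in xNMJ libraries, so that this covariate is partly tied to the region. Prima1 at 10 months ranged from 1.61 to 5.26 and at 30 months from 3.04 to 5.57 when 1 library was left out, and at 10 months was at 5.26 without both 10m xNMJ replicate 7 and 30m xNMJ replicate 5. In fits without 1 library, the age difference in xNMJ ran from -0.16 to 1.72 for Ache, -1.52 to 2.28 for Colq and -3.63 to 1.18 for Prima1, that of Prima1 in NMJ from -1.03 to 0.32, and the interaction from -2.50 to 1.30 for Colq and -1.04 to 3.76 for Prima1. Without both libraries, the age difference in xNMJ was -0.31 for Ache and 1.43 for Prima1, and the interaction of Prima1 -1.30. With insert size, the age difference of Colq in xNMJ was -0.12. The causes of these changes were not tested, beyond the libraries named.

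Genes called between ages in xNMJ were 6 in edgeR, 84 in DESeq2, 87 in DESeq2 without outlier replacement, 2 with insert size, 0 with the compared groups only, 0 without both libraries and 0 to 7 without 1 library. For the interaction they were 0 in edgeR, 10 and 9 in the DESeq2 fits and 0 to 1 without 1 library. The Ache to Colq ratio between regions at 30 months was -1.74 with a pseudocount of 0.1 TPM, -0.37 without pseudocount in libraries with at least 3 counts of both, and -1.07 to -0.65 in fits without 1 library, of which 12 of 32 lost the call. Between ages in xNMJ the ratio ran from -0.12 to 0.56 without 1 library, and from 0.17 to 0.95 with other settings. Between regions at 10 months the ratio reversed to 0.74 without pseudocount. The correlation of Ache with Colq in 10m NMJ reversed to 0.12 in log2 CPM. Prima1 at 30 months with the compared groups only was not fitted, since it missed the filter there.

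Whether replicate numbers pair the libraries is not given by the labels. Deviations of same-numbered NMJ and xNMJ libraries correlated with more than 0.1 in 4 of 8 pairs at 10 months and 1 of 8 at 30 months, so that a pairing was not taken as shown. As a hint towards it, 4 of 8 NMJ and 4 of 8 xNMJ libraries at each age correlated best with their own number, and the mean correlation was 0.089 and 0.081 for the same number against -0.013 and -0.011 for others. With the replicate block, Prima1 at 10 months was 4.84 (adjusted p = 0.015) and its interaction -0.43, the genes called were 1829 at 10 months and 1531 at 30 months (1615 and 1295 without it), and no other call changed. Depth limits xNMJ values of Colq and Prima1, most of which stand on 3 counts or fewer.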
